A study of Mus musculus with 64 samples.

Results

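The mitochondrial ribosome translates the few mRNAs that are encoded by the mitochondrial genome, all of which specify subunits of the respiratory chain or of ATP synthase. Its 2 rRNAs come from the mitochondrial genome, whereas its proteins are encoded in the nucleus, made on cytosolic ribosomes and imported. The large subunit carries the peptidyl transferase center and the exit tunnel, and the small subunit binds the mRNA and decodes it. Brown adipose tissue (BAT) is rich in mitochondria that burn fuel for heat, and white adipose tissue has few of them.

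The genes described here are the protein-coding genes whose mouse symbol starts with Mrpl (large subunit) or Mrps (small subunit) followed by a digit. There were 78 of them among the 52636 genes of the count table, 49 Mrpl and 29 Mrps, on 17 chromosomes. The filter on low counts kept 77, and the exception, *Mrpl53*, had between 0 and 4 counts in every sample. RNA was sequenced from 2 depots, BAT and the epididymal white fat pad (eWAT), taken from male mice kept on chow at room temperature. All mice came from a cross of a line with a floxed *Nampt* allele (NamptTM1Jtree) with Adiponectin-Cre mice, whose Cre is driven by an adipocyte promoter. FANKO mice carried Cre and WT mice were littermates without it. Tissue was taken at zeitgeber time (ZT) 6, 10, 18 and 22, with 4 samples for every combination of depot, genotype and time, 16 groups in all, which gave 16 samples for each depot and genotype. Total counts ranged from 6117343 to 30544847 per sample. Levels are given as CPM, read counts scaled to a library of 1e6 counts, after TMM scaling, and a difference was called at a false discovery rate (FDR) below 0.01, adjusted over all 20249 genes tested by edgeR.

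*Nampt*, the gene targeted in FANKO mice, had 479 to 1454 CPM in WT BAT and 109 to 186 CPM in FANKO BAT, without overlap. In eWAT its level was 112 to 309.7 CPM in WT and 101 to 131 CPM in FANKO mice, so the ranges overlapped, and the fitted fall of 0.50 ± 0.07 (log2, SE) passed the test (FDR 4.67e-09). The depot labels were checked against markers, which gave a summed level of 6 brown adipocyte markers of 5240.5 to 11317 CPM in WT BAT and 8.14 to 32.4 CPM in WT eWAT, where *Ucp1* was at or near 0 (0 to 2.41 CPM). The composition of BAT differed between genotypes. The summed level of 6 general adipocyte markers fell from a median of 12020.2 CPM (range 10424 to 13569) to 6504 CPM (range 4794 to 8358), and all 6 were called lower. All 6 macrophage markers were called higher in FANKO BAT, with sums of 86.6 to 163 CPM in WT and 484 to 1185 CPM in FANKO mice. All 6 T and B cell markers were called higher as well, with sums of 1.4 to 3.25 CPM and 33.0 to 116 CPM. Of 6 progenitor and fibroblast markers 5 were called higher. Bulk RNA cannot tell fewer adipocytes from less of a transcript per adipocyte.

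The sum over all 77 genes separated the genotypes completely in both depots, and in opposite directions. It was 4081 to 4897 CPM in WT BAT (median 4486) and 1876 to 3024 CPM in FANKO BAT (median 2449.7), a ratio of medians of 0.546. In eWAT it was 1312 to 1992 CPM in WT (median 1607) and 2101 to 2678 CPM in FANKO mice (median 2237), a ratio of 1.39. Every WT BAT sample was thus above every FANKO BAT sample, and every FANKO eWAT sample above every WT eWAT sample.

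**Figure D1:**
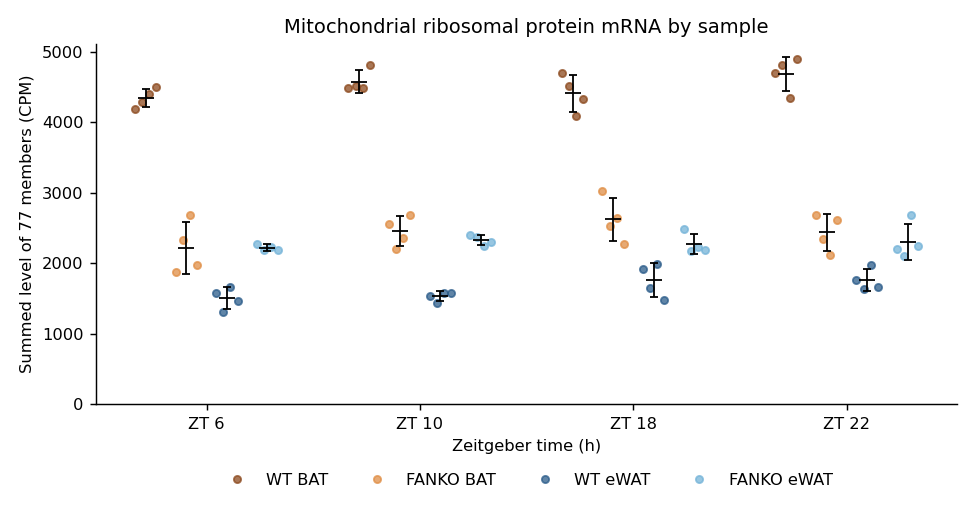
Summed level (CPM, linear axis from 0) of the 77 mitochondrial ribosomal protein genes in each of the 64 samples by zeitgeber time. Points are samples, and black bars give the mean ± SD of 4 samples. WT BAT lies between 4081 and 4897 CPM, FANKO BAT between 1876 and 3024, FANKO eWAT between 2101 and 2678 and WT eWAT between 1312 and 1992.

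The scaling enters this comparison. Transcripts of the mitochondrial genome took 16.8% to 40.7% of all counts in WT BAT and 7.48% to 24.7% in FANKO BAT. In eWAT they took 3.88% to 10.7% in WT and 6.11% to 14.6% in FANKO mice. As a share of all counts without any scaling, the 78 genes made up 0.249% to 0.381% in WT BAT and 0.215% to 0.331% in FANKO BAT, which overlapped. As a share of the counts of nuclear genes they made up 0.390% to 0.467% and 0.265% to 0.374%, which did not. In eWAT the share of all counts was 0.184% to 0.224% in WT and 0.219% to 0.261% in FANKO mice, which overlapped. The share of nuclear counts there was 0.195% to 0.239% in WT and 0.242% to 0.291% in FANKO mice, again without overlap. The order of the genotypes was therefore the same without TMM factors once the mitochondrial transcripts were set aside. The size of the difference was not. The FANKO to WT ratio of medians in BAT was 0.762 for all counts, 0.695 for nuclear counts and 0.546 with TMM scaling. With TMM scaling and the mitochondrial genes left out, all 77 were called lower in FANKO BAT, with a median log2 fold change of -0.87.

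In BAT, all 77 genes were lower in FANKO than in WT mice, against 33.9% of all genes tested, and none was higher, against 33.1% (with library size alone as the scaling 46 remained lower and 3, *Mrpl1*, *Mrpl52* and *Mrps10*, were called higher). The fitted log2 fold changes ran from -1.79 to -0.28, with a median of -0.85, which is a level of 0.556 times that of WT mice, and the median of all genes tested was 0.00. With library size alone the median of the 77 was -0.26 in BAT and 0.24 in eWAT while that of all genes moved to 0.58 and -0.27, so all changes given are relative to the bulk of genes under TMM scaling. For 56 of the 77, all 16 FANKO samples were below all 16 WT samples, a pattern found in 10% of all genes tested. All 48 Mrpl and all 29 Mrps genes tested were among the genes called, with medians of -0.81 and -0.94.

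Beside this fall stands that of the adipocyte markers. The summed level of the 77 genes divided by that of the 6 adipocyte markers was 0.329 to 0.445 in WT BAT (median 0.373) and 0.306 to 0.420 in FANKO BAT (median 0.374), so that ratio overlapped almost wholly between genotypes. The brown adipocyte marker sum, in contrast, was 5240.5 to 11317 CPM in WT and 1347 to 3578 CPM in FANKO BAT, without overlap, a ratio of medians of 0.311 with 4 of 6 called lower. Of 5 endothelial markers 4 were called lower in FANKO BAT, with sums of 402 to 594 CPM and 284 to 430 CPM. In eWAT the same ratio was 0.0915 to 0.142 in WT and 0.137 to 0.186 in FANKO mice, and the adipocyte marker sum was 10674 to 17958 CPM and 11838 to 17258 CPM. Of those 6 markers in eWAT, 3 were called lower and 1, *Fabp4*, higher. The part of the cell composition in the differences of the ribosomal protein genes was not tested.

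Among the genes with the largest falls in BAT was *Mrps36*, whose product is now known as a subunit of the 2-oxoglutarate dehydrogenase complex of the citric acid cycle rather than of the ribosome. Its level was 27.1 to 38.9 CPM in WT BAT (median 33.3) and 5.63 to 13.2 CPM in FANKO BAT (median 9.87). The log2 fold change was -1.79 ± 0.08 (SE, FDR 2.06e-28, edgeR). Every FANKO sample was below every WT sample. *Mrps36* shared 20.1% of its 38-base words with transcripts of other genes on the same strand. Some of its reads may thus not be placed with certainty, which was not examined.

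*Mrpl50* encodes a large-subunit protein that bacterial ribosomes lack. Its level was 90.7 to 179 CPM in WT BAT (median 124) and 31.5 to 55.9 CPM in FANKO BAT (median 43.9), a log2 fold change of -1.5 ± 0.07 (FDR 1.08e-28). *Mrps35*, a mitochondria-specific small-subunit protein, went from 68.8 to 105 CPM down to 21.6 to 35.4 CPM (-1.47 ± 0.05, FDR 1.18e-32). For both genes every FANKO BAT sample was below every WT BAT sample.

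*Mrps27*, a pentatricopeptide repeat protein of the small subunit, had 39.6 to 69.1 CPM in WT BAT and 13.3 to 24.6 CPM in FANKO BAT (-1.42 ± 0.07). The other 4 of the 8 largest falls were *Mrpl9* (-1.29 ± 0.05), *Mrps5* (-1.26 ± 0.05), *Mrpl3* (-1.24 ± 0.04) and *Mrps21* (-1.23 ± 0.07), all homologues of bacterial ribosomal proteins. None of these genes overlapped between genotypes. The smallest falls were those of *Mrps10* (-0.28 ± 0.06, 21.8 to 36.2 CPM in WT and 19.5 to 32.5 CPM in FANKO BAT), *Mrpl52* and *Mrpl1* (the last pair chosen after their values were seen), and for *Mrps10* the groups overlapped.

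Several members have a role beyond the ribosome, or an unusual place in it. *Mrpl12*, which also binds the mitochondrial RNA polymerase, varied widely, with 57.4 to 133 CPM in WT BAT and 23.0 to 72.0 CPM in FANKO BAT. Its fall of 0.97 ± 0.13 was called although the groups overlapped. Part of the spread went with the replicate number. Replicate 4 had 57.4 to 69.4 CPM in WT and 23.0 to 36.9 CPM in FANKO BAT, and replicate 2 had 103 to 115 CPM and 50.3 to 64.6 CPM. Within each replicate number the genotypes did not overlap in BAT. *Mrpl10* and *Mrpl11*, which with *Mrpl12* form the stalk that recruits translation factors, fell by 1.09 ± 0.06 and 0.67 ± 0.06. *Mrpl58*, a peptidyl-tRNA hydrolase built into the large subunit, fell by 0.81 ± 0.06. *Mrpl45*, which sits at the exit tunnel and anchors the ribosome to the inner membrane, fell by 0.86 ± 0.05, and *Mrpl44*, a protein with a ribonuclease III fold, by 0.79 ± 0.05. *Mrps12* and *Mrps24* of the small subunit fell by 1.15 ± 0.07 and 1.22 ± 0.06. *Mrps34* fell by 0.82 ± 0.13, but it shared 35.2% of its 38-base words with other transcripts of the same strand and 55.4% with the opposite strand, and it overlapped *Nme3*.

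Mammals have 3 proteins related to bacterial S18, of which Mrps18b and Mrps18c belong to the small subunit and Mrps18a to the large subunit. In BAT, *Mrps18a* had 46.9 to 64.1 CPM in WT and 29.7 to 53.6 CPM in FANKO mice (-0.52 ± 0.06), *Mrps18b* 21.9 to 35.6 CPM and 14.5 to 25.3 CPM (-0.52 ± 0.07), and *Mrps18c* 22.2 to 31.3 CPM and 14.1 to 20.7 CPM (-0.62 ± 0.06). All 3 were called, and the groups overlapped for the first pair but not for *Mrps18c*. With library size alone as the scaling, none of the 3 was called, *Mrps18a* and *Mrps18b* changed sign (both 0.06) and *Mrps18c* was at -0.03 (FDR 0.701).

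In eWAT, 69 of the 77 genes were higher in FANKO than in WT mice, against 27.6% of all genes tested, and 1 was lower, against 22.8% (47 and 4 with library size alone). The median log2 fold change was 0.48, a level of 1.40 times that of WT mice, and the median of all genes tested was -0.02. For 24 genes all 16 FANKO samples were above all 16 WT samples, against 4.57% of all genes tested. Of the Mrpl genes 44 were higher and of the Mrps genes 25, with medians of 0.49 and 0.46. Progenitor and fibroblast markers moved with the genotype in this depot, all 6 called lower (sums of 2313 to 4153 CPM in WT and 1394 to 2017 CPM in FANKO mice). The macrophage marker sum was 535 to 829.7 CPM in WT and 517 to 894 CPM in FANKO mice, which overlapped. Of the 6 macrophage markers 3 were called higher and none lower. The brown adipocyte marker sum was 8.14 to 32.4 CPM in WT and 48.4 to 107 CPM in FANKO eWAT, without overlap, with 3 of the 6 called higher and 1 lower. The part of these markers in the rise was not tested.

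*Mrps18b* had the largest rise in eWAT, from 7.98 to 14.7 CPM in WT (median 9.94) to 14.9 to 24 CPM in FANKO mice (median 20.1), a log2 fold change of 0.94 ± 0.07 (SE, FDR 2.93e-18, edgeR). The highest WT sample was just below the lowest FANKO sample. Reads of its opposite strand could be counted with it if strand was not used, since 26.5% of its 38-base words occurred there. *Mrps18b* also shared 15.9% of its words with transcripts of other genes on the same strand. *Mrpl51* had 28.9 to 53.6 CPM in WT and 62.4 to 92.5 CPM in FANKO eWAT (0.86 ± 0.06). *Mrpl46* had 8.01 to 13.2 CPM and 16.3 to 22.2 CPM (0.85 ± 0.06), and its annotated exons overlap those of *Mrps11* on the opposite strand. Neither gene overlapped between genotypes. The next were *Mrpl42* (0.83 ± 0.07), *Mrpl34* (0.82 ± 0.09), *Mrpl12* (0.81 ± 0.13), *Mrpl47* (0.80 ± 0.06) and *Mrpl35* (0.79 ± 0.06). Of the 8 largest rises 7 were thus of Mrpl genes, which were 48 of the 77 tested. The median changes of Mrpl and Mrps genes in eWAT were close (0.49 and 0.46).

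The exception was *Mrpl49*, with 24.4 to 46.5 CPM in WT and 25.3 to 37.7 CPM in FANKO eWAT (-0.21 ± 0.05, FDR 0.00097). Its groups overlapped, and the difference was called although small. The genes not called in eWAT were *Mrpl23*, *Mrpl41*, *Mrpl50*, *Mrps6*, *Mrps12*, *Mrps25* and *Mrps34*. *Mrpl50*, second among the falls in BAT, had 24 to 45.5 CPM in WT eWAT and 29.7 to 41.6 CPM in FANKO eWAT (0.08 ± 0.07, FDR 0.316). With library size alone it was called lower (-0.16).

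**Figure D2:**
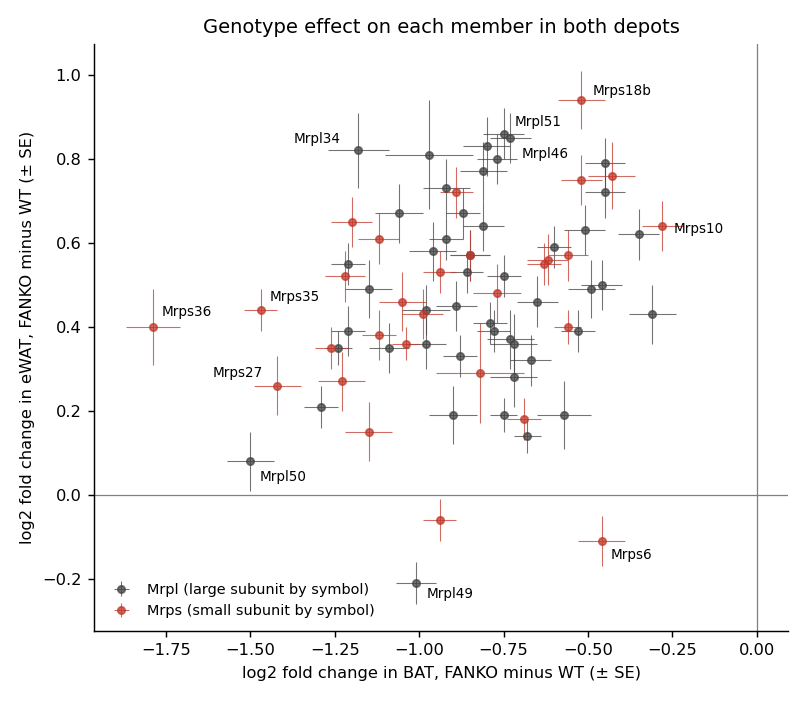
Fitted log2 fold change (FANKO minus WT, ± SE) of each of the 77 genes in BAT (horizontal axis) and in eWAT (vertical axis), with Mrpl genes in gray and Mrps genes in red. All points lie below 0 in BAT under TMM scaling (16 of them change sign with library size alone), and all but 3 lie above 0 in eWAT (8 change sign with library size alone).

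RefSeq (GRCm38.p6) gives promoter sequences, from 250 bases before to 50 after each start, for 69 of the 78 genes. The letters CCGGAAG, the core recognized by ETS factors such as GABPA, occurred on either strand in 26 of the 69 (37.7%), counting 34.7% of their 75 promoters against 8.86% of all 32851 promoters. AAGATGGC (YY1) occurred in 16% of their promoters against 2.75%, and GCATGCGC (part of the NRF1 motif) in 10.7% against 2.71%, or 4.0% against 0.97% for the whole NRF1 palindrome. CCAAT was about as frequent as elsewhere (40.0% against 37.41%), and TATAAA less (6.7% against 13.62%). The median GC content was 58.7% and 52.7%. In the annotation 23 of the 78 genes (29.5%) had a protein-coding gene starting on the other strand close by in head-to-head order, against 7.9% of all protein-coding genes. These are descriptions of letters and positions, not of binding.

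The stretches from 100 bases before to 10 after the start are given, 5′ to 3′ on the strand of the gene, for genes with large falls in BAT (*Mrps36*, *Mrpl50*, *Mrps27* and *Mrpl9*) and large rises in eWAT (*Mrpl34* and *Mrpl42*), among those with at most 30 bases of annotated exon in the window. Capitals mark the motifs above on either strand, a CCAAT box in the first and second, an ETS core in *Mrps27* and *Mrpl34* and the NRF1 palindrome in *Mrpl9*. They lie at chr13:100744650-100744759 (minus strand), chr4:49521074-49521183 (minus), chr13:99344686-99344795 (plus), chr3:94443236-94443345 (plus), chr8:71464826-71464935 (plus) and chr10:95501940-95502049 (minus), in that order. The first pair are the largest falls in BAT. No gene rose in BAT, so the other 4 were chosen after their values were seen.
Mrps36: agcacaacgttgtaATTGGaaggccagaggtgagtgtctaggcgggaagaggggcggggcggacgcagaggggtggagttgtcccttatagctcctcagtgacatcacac
Mrpl50: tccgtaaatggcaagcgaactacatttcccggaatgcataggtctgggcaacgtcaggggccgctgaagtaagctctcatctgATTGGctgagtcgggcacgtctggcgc
Mrps27: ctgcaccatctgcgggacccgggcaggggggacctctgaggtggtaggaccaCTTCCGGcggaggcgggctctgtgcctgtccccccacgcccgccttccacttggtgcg
Mrpl9: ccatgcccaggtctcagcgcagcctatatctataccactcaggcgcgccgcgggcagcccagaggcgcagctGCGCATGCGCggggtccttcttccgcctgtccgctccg
Mrpl34: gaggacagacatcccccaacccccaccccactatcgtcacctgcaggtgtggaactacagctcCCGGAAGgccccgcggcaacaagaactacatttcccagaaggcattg
Mrpl42: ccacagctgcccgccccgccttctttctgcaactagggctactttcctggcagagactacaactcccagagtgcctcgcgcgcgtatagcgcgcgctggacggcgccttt

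*Mrpl42*, with one of the largest rises in eWAT, held none of the motifs in the stretch shown, although its whole promoter held AAGATGGC and CCAAT, and *Mrps36* and *Mrpl50*, with the largest falls in BAT, held the CCAAT box, whose frequency was near that of all promoters.

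The genotype effect differed between depots for all 77 genes by the test of that difference itself. All 77 had a lower effect in BAT than in eWAT, against 32.1% of all genes tested (76 with DESeq2, 58 with library size alone). The difference of the effects had a median of -1.39 on the log2 scale. The 5 with the smallest p were *Mrpl3* (-1.59 ± 0.06), *Mrps35* (-1.91 ± 0.08), *Mrps9* (-1.41 ± 0.06), *Mrpl39* (-1.76 ± 0.07) and *Mrps28* (-1.85 ± 0.08). *Mrps9* went from 53.3 to 84.0 CPM down to 29.7 to 39.5 CPM in BAT and from 24.3 to 29.7 CPM up to 31.8 to 43.8 CPM in eWAT. Neither pair of ranges overlapped. Across the 77 genes the 2 effects were only weakly related (Pearson's r 0.23, Spearman's rho 0.25, a description over genes that share libraries), so the genes with the deepest falls in BAT were not those with the largest rises in eWAT.

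In WT mice 76 of the 77 genes were higher in BAT than in eWAT, against 32.7% of all genes tested (64 with library size alone), with a median log2 difference of 1.38. For 71 genes all 16 BAT samples were above all 16 eWAT samples, against 12% of all genes tested. The 3 largest differences were those of *Mrps36* (3.19 ± 0.09), *Mrpl34* (2.79 ± 0.09) and *Mrpl42* (2.29 ± 0.08). *Mrps36* had 2.61 to 4.81 CPM in WT eWAT, and *Mrpl34* 75.9 to 112 CPM in WT BAT and 6.71 to 20.4 CPM in WT eWAT. The gene that was lower in BAT was *Mrps6* (-0.33 ± 0.06, against 41.1% of all genes lower), with 23.4 to 35.2 CPM in BAT and 22.7 to 42.5 CPM in eWAT. *Mrps6* overlaps *Slc5a3*, a myo-inositol transporter gene, on the same strand, and 18% of its 38-base words were shared with other transcripts of that strand.

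In FANKO mice the depot difference was much smaller. There, 27 genes were higher in BAT, against 28.1% of all genes tested, 10 were lower, against 31.6%, and 40 were not called, with a median log2 difference of 0.04. The count of 27 fell to 13 with covariates for muscle and epididymis markers and to 17 without replicate 2. *Mrps2* was the 1 gene whose 16 FANKO BAT samples were all above the 16 FANKO eWAT samples (5.18% of all genes), with 32.7 to 50.9 CPM and 22.3 to 31.8 CPM. The 3 largest differences were those of *Mrps36* (1.00 ± 0.09), *Mrpl34* (0.80 ± 0.09) and *Mrps2* (0.70 ± 0.05), and the 3 most negative those of *Mrps6* (-0.68 ± 0.07), *Mrpl20* (-0.50 ± 0.06) and *Mrps28* (-0.43 ± 0.06). For 72 of the 77 genes both FANKO medians lay between the WT BAT and the WT eWAT median, against 29.3% of all genes. The exceptions were *Mrpl49*, *Mrps6*, *Mrps25*, *Mrps26* and *Mrps34*. These depot comparisons use the same samples as the genotype comparisons and are another view of them.

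**Figure D3:**
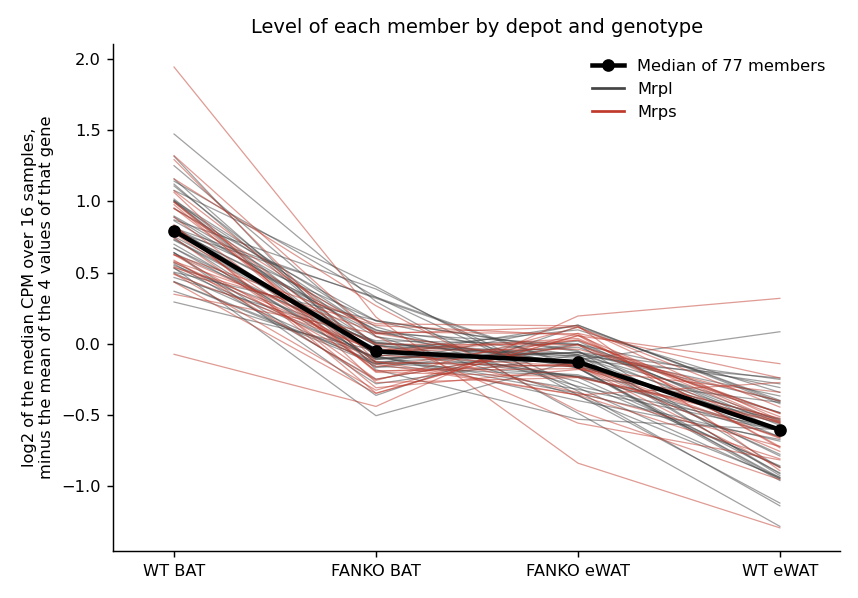
Level of each of the 77 genes in the 4 combinations of depot and genotype, as the log2 of the median CPM over 16 samples minus the mean of the 4 values of that gene (Mrpl in gray, Mrps in red, median in black). WT BAT is highest and WT eWAT lowest for most genes under TMM scaling, and the FANKO depots lie close together in between. With library size alone, 64 genes were called higher in WT BAT than in WT eWAT.

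Both subunits were lower in FANKO BAT and higher in FANKO eWAT. The summed level of the Mrpl genes had a median of 3055 CPM (WT) and 1678 CPM (FANKO) in BAT, and of 1063 CPM and 1483 CPM in eWAT, and that of the Mrps genes 1431, 769, 549 and 758 CPM in the same order. The FANKO to WT ratio of medians was 0.549 for Mrpl and 0.538 for Mrps in BAT, and 1.39 and 1.38 in eWAT. The log2 ratio of the Mrpl to the Mrps sum was 1.05 to 1.15 in WT BAT and 1.075 to 1.199 in FANKO BAT, with medians of 1.101 and 1.122. It was 0.876 to 0.993 in WT eWAT and 0.941 to 1.024 in FANKO eWAT, with medians of 0.949 and 0.978. The genotypes overlapped within each depot, and their medians differed by 0.021 in BAT and 0.029 in eWAT, with an SD of 0.0309 among single samples of a group. The FANKO mean was above the WT mean at all 4 time points in both depots, for example 0.994 ± 0.021 against 0.951 ± 0.026 (SD, n = 4) in eWAT at ZT 6. This small difference was not tested.

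The depots did not overlap in this ratio. The lowest BAT sample of either genotype (1.05) was above the highest eWAT sample (1.024), and the medians differed by 0.152 in WT and 0.144 in FANKO mice. Mrpl transcripts therefore made up slightly more of the sum in BAT. With *Mrps30* and *Mrps18a* assigned to the large subunit, where their products sit, and *Mrps36* left out, the median ratio was 1.288 (WT) and 1.330 (FANKO) in BAT, and 1.150 and 1.188 in eWAT. Per kilobase of exon it was 1.181, 1.222, 1.017 and 1.045. With the mean of log2 CPM over genes in place of sums, which gives every gene equal weight, the difference between genotypes in BAT rose to 0.094 and that between WT depots fell to 0.063. That measure was 0.307 to 0.384 in WT BAT and 0.366 to 0.498 in FANKO BAT, which overlapped only in part. In eWAT it was 0.205 to 0.307 in WT and 0.265 to 0.371 in FANKO mice. The size of the shift between subunits thus depended on the measure, and it was not tested.

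**Figure D4:**
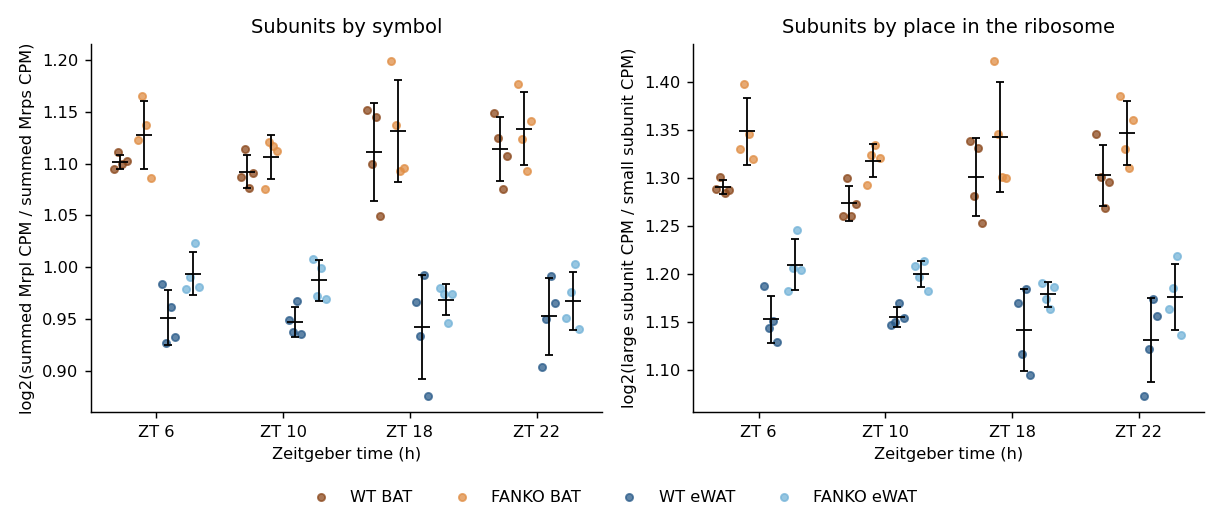
Log2 ratio of the summed CPM of large-subunit to small-subunit genes in each sample, by zeitgeber time, with subunits assigned by symbol (left) or by place in the ribosome (right). The vertical axes do not start at 0. Points are samples and bars the mean ± SD of 4. The BAT samples lie above the eWAT samples in the left panel (lowest BAT 1.05, highest eWAT 1.024), and the genotypes overlap within a depot.

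Classed by ancestry, 28 large-subunit and 16 small-subunit proteins have a bacterial homologue, and 22 and 10 are specific to mitochondria. *Mrps36* and *Mrpl55* were left out of these classes, although *Mrpl55* was counted with the large subunit in the ratios above. For the other genes the classes follow the current names of the proteins. Under these the products of *Mrps18a* and *Mrps18b* count as specific to mitochondria. In BAT the median log2 fold change was -0.88 for the 28 large-subunit proteins with a homologue, -0.75 for the 21 tested without one, -0.96 for the 16 small-subunit proteins with a homologue and -0.91 for the 10 without. In eWAT the medians were 0.47, 0.49, 0.53 and 0.41. The ranges of the classes overlapped widely in both depots.

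Per kilobase of exon, which allows levels of different genes to be set side by side, the mean over all 64 samples was highest for *Mrpl34* (66.7 CPM per kb), *Mrps21* (51.0) and *Mrpl20* (37.2), and lowest for *Mrpl23* (0.876), *Mrps10* (3.00) and *Mrps34* (3.19). The order differed between depots and genotypes. *Mrpl34* had the highest median in WT BAT (142 CPM per kb) and FANKO BAT (62.9), *Mrps21* in WT eWAT (30.7, with *Mrpl20* next at 27.2) and *Mrpl20* in FANKO eWAT (38.9). *Mrpl23* was lowest in all 4. Exonic length here is that of all annotated transcripts together, and *Mrpl34*, *Mrps21* and *Mrpl20* have short annotations, of 607, 739 and 1664 bases. *Mrpl23* has 4883 bases of annotated exon.

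At each time point the direction was the same. In BAT 75 genes were lower at ZT 6 (23.9% of all genes), 72 at ZT 10 (22.4%), 65 at ZT 18 (22.5%) and 74 at ZT 22 (22.7%). None was higher by edgeR at any of the 4 times, against 24.4%, 23.3%, 21.5% and 22.6% of all genes. In eWAT 60 were higher at ZT 6 (16.9% of all genes), 61 at ZT 10 (16%), 32 at ZT 18 (8.54%) and 40 at ZT 22 (12.6%). None was lower there at the first 3 times (10.1%, 8.46% and 5.1% of all genes), and at ZT 22 *Mrpl49* was lower (-0.44, 8.02%). The median log2 fold change in BAT was -0.93, -0.86, -0.70 and -0.90 at the 4 times, and in eWAT 0.58, 0.61, 0.37 and 0.42. The medians were nearest to 0 at ZT 18 in both depots, and whether the effect differed between time points as a set was not tested. For 57 genes the 4 FANKO BAT samples were below the 4 WT BAT samples at every time point (13.4% of all genes), and for 37 the 4 FANKO eWAT samples were above the WT samples at every time point (7.48%), with none in the reverse order (3.02%).

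At an FDR below 0.01 edgeR called 3 genes rhythmic in WT BAT (3.9%, against 13.9% of all genes tested). It called 3 in FANKO BAT (3.9% against 2.84%), 7 in WT eWAT (9.09% against 9.38%) and none in FANKO eWAT (against 6.77%). The share was thus near that of all genes in FANKO BAT and WT eWAT, and below it in WT BAT and FANKO eWAT. At an unadjusted p below 0.05 the counts were 9, 22, 39 and 3 of 77 (11.7%, 28.6%, 50.6% and 3.9%). The shares of all genes were 32.0%, 21.5%, 29.6% and 24.5%. In WT BAT the rhythmic genes were *Mrpl50*, *Mrps27* and *Mrpl18*. *Mrpl50* was 112 ± 16.3 CPM (SD, n = 4) at ZT 6 and 156 ± 18 CPM at ZT 22, and *Mrps27* was 42.6 ± 2.21 CPM and 59.2 ± 7.17 CPM. Both were highest at ZT 22 among the 4 times, late in the dark phase.

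In WT eWAT the rhythmic genes were *Mrps2*, *Mrpl38*, *Mrpl3*, *Mrps7*, *Mrps18b*, *Mrpl47* and *Mrps22*, and all had their 2 highest means at ZT 18 and ZT 22. *Mrps2* was 16 ± 2.21 CPM at ZT 6 and 22.3 ± 1.95 CPM at ZT 22, a difference of 0.48 ± 0.12 on the log2 scale (SE), and its rhythm test gave an FDR of 0.000276. *Mrpl38* was 18.1 ± 1.24 CPM at ZT 6 and 26.5 ± 3.81 CPM at ZT 18. In FANKO BAT *Mrps17*, *Mrpl18* and *Mrpl47* were rhythmic, each highest at ZT 18. *Mrps17* was 39.0 ± 6.90 CPM at ZT 6 and 57.1 ± 9.32 CPM at ZT 18 (a log2 difference of 0.55 ± 0.17), and its rhythm test, on the cosine and sine terms, gave an FDR of 0.0006. In FANKO eWAT the smallest p values were those of *Mrpl9*, *Mrpl47* and *Mrpl49* (FDR 0.0276, 0.0282 and 0.0491), and DESeq2 and limma-voom also called none.

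The rhythm differed between genotypes for 1 gene in BAT, *Mrpl18* (2.76% of all genes, FDR 0.00151). In WT BAT it was 94.1 ± 6.89 CPM at ZT 10 and 73.9 ± 7.12 CPM at ZT 18, and in FANKO BAT 46.2 ± 3.19 CPM and 53.3 ± 9.65 CPM, so its highest mean was at ZT 10 in WT and at ZT 18 in FANKO mice. The call was lost without replicate 1, without replicate 2, without replicate 4, and without the 9 libraries with more than 100 CPM of skeletal muscle markers. Next in BAT were *Mrps23* and *Mrps16* (FDR 0.0567 and 0.077), which were not called. In eWAT edgeR called none (1.15% of all genes), DESeq2 called 1 and limma-voom none. At an unadjusted p below 0.05 edgeR had 16 of the 77 there (20.8%), against 15.6% of all genes. The smallest FDR there were those of *Mrpl24* (0.0297), *Mrps18b* (0.0352) and *Mrps22* (0.0828). *Mrpl18* was called rhythmic in both genotypes in BAT, and no gene called rhythmic in only 1 genotype was shown to differ between them.

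The rhythm counts changed when a replicate number was left out, which removes 1 sample from each of the 16 groups. Leaving out each number in turn gave 0 to 2 genes (WT) and 0 to 4 genes (FANKO) for BAT, and 0 to 9 and 0 for eWAT. Without replicate 1 no gene was rhythmic in any of the 4, and in WT BAT none was without replicate 2 either. In FANKO BAT none was rhythmic without replicate 4.

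**Figure D5:**
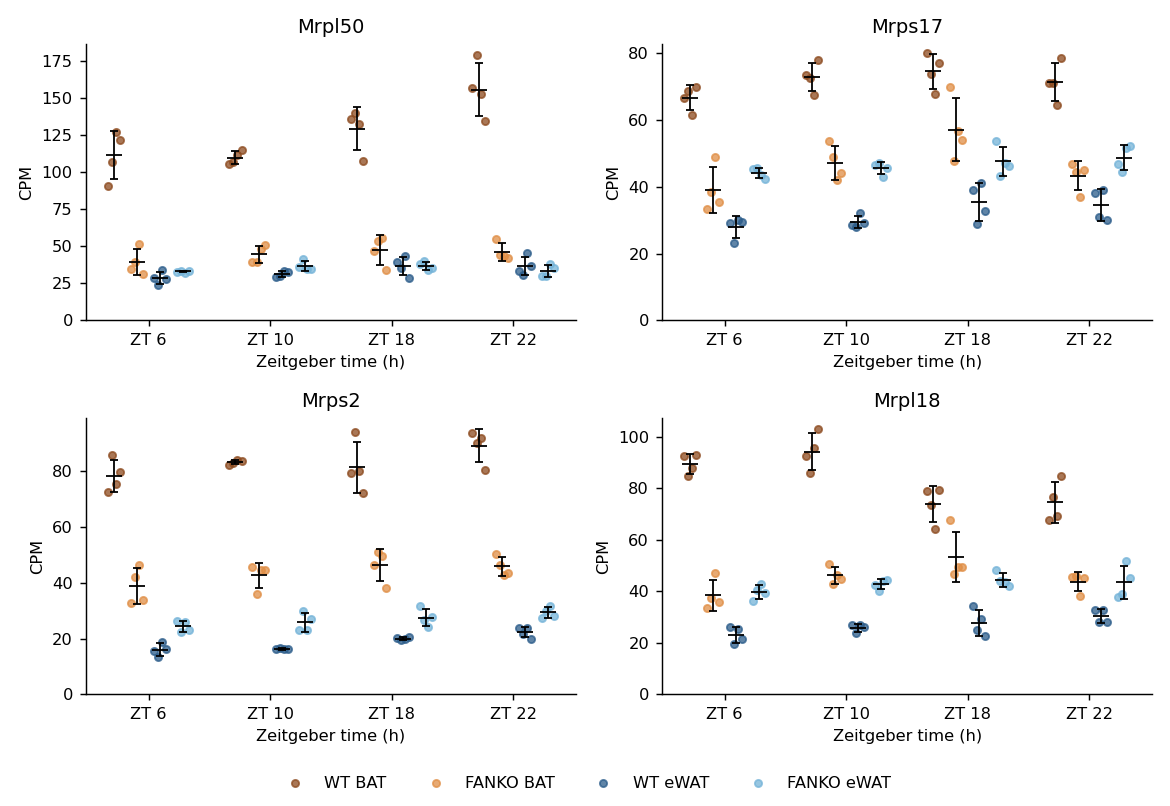
Level (CPM, linear axes from 0) of *Mrpl50*, *Mrps17*, *Mrps2* and *Mrpl18* in each sample by zeitgeber time, with the mean ± SD of 4 samples. *Mrpl50* in WT BAT goes from 112 CPM at ZT 6 to 156 at ZT 22, and *Mrpl18* is highest at ZT 10 in WT BAT and at ZT 18 in FANKO BAT.

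Genes that work with the mitochondrial ribosome were examined as lists, with TMM scaling. Of all genes tested, 33.9% were lower and 33.1% higher in FANKO BAT, and 22.8% lower and 27.6% higher in FANKO eWAT. These shares stand beside each list count that follows. Of 5 ribosomal proteins with other symbols all 5 were lower in FANKO BAT and all 5 higher in FANKO eWAT. *Ptcd3* (mS39), a pentatricopeptide repeat protein of the small subunit, went from 163 to 202 CPM down to 68.9 to 108 CPM in BAT (-1.12 ± 0.06), and *Chchd1* (mS37) from 11.5 to 19.2 CPM up to 19.8 to 31.4 CPM in eWAT (0.75 ± 0.07). Of 15 translation factors 15 were lower in BAT and 11 higher in eWAT. *Lrpprc*, which stabilizes mitochondrial mRNAs, had 319 to 419 CPM in WT and 118 to 181 CPM in FANKO BAT (-1.30 ± 0.05) and 55.7 to 86.2 CPM and 90.5 to 112 CPM in eWAT (0.54 ± 0.05). *Guf1*, an elongation factor, fell in BAT (-1.10 ± 0.04) and was not called in eWAT (FDR 0.965).

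Of 24 assembly factors 23 were lower in BAT and 17 higher in eWAT, and of 20 aminoacyl-tRNA synthetases and related enzymes 19 and 12. *Mtg1*, a GTPase of large-subunit assembly, fell by 1.38 ± 0.05 in BAT, and *Iars2*, the isoleucyl-tRNA synthetase, by 1.47 ± 0.05, from 286 to 358 CPM down to 94.9 to 142 CPM, while in eWAT *Iars2* was 113 to 159 CPM and 106 to 158 CPM. *Trub2*, a pseudouridine synthase, had 17.9 to 91.0 CPM in WT and 62.7 to 126 CPM in FANKO eWAT (1.09 ± 0.09), and was the assembly factor not called in BAT. The ribosomal protein genes had a larger median rise in eWAT (0.48) than any of these last 3 lists (0.27, 0.27 and 0.17), and a median fall in BAT (-0.85) close to theirs (-0.82, -0.73 and -0.78). No test of the differences between lists was made.

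Of 13 regulators of mitochondrial transcription and biogenesis, 7 were lower and 4 higher in FANKO BAT (33.9% and 33.1% of all genes). The 4 higher were thus near the share of all genes. *Tfb2m*, the mitochondrial transcription factor B2, fell by 1.60 ± 0.06, and *Ppargc1b*, a transcriptional coactivator, by 2.07 ± 0.12, from 39.2 to 133 CPM down to 12 to 40.1 CPM. *Tfam*, which packages and transcribes the mitochondrial genome, fell by 0.80 ± 0.05. In eWAT 8 were higher and 1 lower, among them *Esrra*, a nuclear receptor (0.83 ± 0.08), and *Tfam* (0.43 ± 0.05).

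The products translated by these ribosomes come from the mitochondrial genome. Of its 13 mRNA genes 8 passed the filter, of which 7 were lower in FANKO BAT and 7 higher in FANKO eWAT, with medians of -1.51 and 0.72. *mt-Cytb* had 7823 to 16284 CPM in WT and 1617 to 4164 CPM in FANKO BAT (-2.20 ± 0.12). The rRNA *mt-Rnr2* was called in both depots (-1.47 ± 0.20 and 0.84 ± 0.20), but rRNA was depleted before sequencing, so its counts reflect what depletion left. The 83 nuclear-encoded respiratory complex subunits tested, matched by symbol, had larger medians than the ribosomal proteins, with 80 lower and 1 higher in BAT (median -1.40) and 78 higher in eWAT (median 0.77). The summed level of the 77 ribosomal protein genes divided by that of these subunits was 0.0813 to 0.0929 in WT BAT and 0.114 to 0.150 in FANKO BAT, and 0.178 to 0.226 in WT eWAT and 0.149 to 0.174 in FANKO eWAT. The genotypes did not overlap in this ratio in either depot, and its direction was opposite in them.

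Genes of the cytosolic ribosome gave another picture in BAT. Of the 76 tested, 15 were lower and 19 higher in FANKO BAT, with a median of 0.03. Both were smaller shares than those of all genes (33.9% and 33.1%). In eWAT 65 were higher (27.6% of all genes), with a median of 0.32. Their summed level was 5312 to 7953 CPM in WT BAT and 5756 to 8105 CPM in FANKO BAT, which overlapped, and 5575 to 7327 CPM and 6891 to 9367 CPM in eWAT, which also overlapped.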

How the data were processed

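RNA of 64 samples (2 depots, 2 genotypes, 4 time points, 4 samples per group) was sequenced as stranded total RNA after rRNA depletion. The authors deposited raw read counts per gene. The submitters' processing notes name STAR 2.5.3a, featureCounts 1.5.3, FastQC 0.11.5, MultiQC 1.2 and GRCm38.p5, whereas how counting treated strand and multiple alignments is not given in the sources used here. Total counts ranged from 6117343 to 30544847 per sample (median 15826651), and this depth limits the precision for genes of a few CPM.

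Symbols were taken from the GENCODE annotation on GRCm38. Genes were kept with filterByExpr (minimum count 10, minimum total 15), which left 20249 of 52636, scaled by TMM and fitted over all 64 samples with edgeR's quasi-likelihood test (edgeR 4.0.16, limma 3.58.1, R 4.3.3), with a mean and a 24 h cosine and sine term for each depot and genotype. P-values were adjusted by Benjamini-Hochberg over all genes tested, with calls at an FDR below 0.01. Effects at single time points came from a model of the 16 group means. The range of a rhythmic gene is the difference of its highest and lowest time point on the log2 scale. Shared sequence was measured as the share of 38-base words of a gene's exons found in other genes. Alternatives were DESeq2 1.42.0, limma-voom, other scalings and filters, a replicate block, covariates for muscle and epididymis markers, and leaving out replicates or libraries. The scripts were tested on simulated counts.

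The labels number the replicates but do not say which samples came from 1 animal, so p-values measure the spread between these samples. The genes and lists were chosen with earlier results of these data known. Named genes were those with the 8 largest called changes each way in each depot, the 5 smallest p for the depot difference of the genotype effect, the 3 largest depot differences each way, the 3 smallest p of each rhythm test, the 3 highest and lowest per kilobase, and 16 genes named for their role.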

Additional observations from a re-analysis of the deposited data

Results flagged for a closer look

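In WT BAT at ZT 10, 1 of the 4 samples stood apart in the summed level of the ribosomal protein genes, at 4814 CPM, with the nearest at 4515 CPM and the lowest at 4477 CPM. Its gap was 0.885 of the range of the group, and chance alone puts about 1 in 20 groups past the limit used. In all, 32 groups of 4 values were examined, so 1 group past the limit can arise by chance.

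The genotype effect differed between depots for 77 genes by the test of the difference itself (edgeR, 58 with library size alone). The 5 with the smallest p had effects in BAT minus those in eWAT of -1.59 for *Mrpl3*, -1.91 for *Mrps35*, -1.41 for *Mrps9*, -1.76 for *Mrpl39* and -1.85 for *Mrps28*, on the log2 scale. The rhythm of *Mrpl18* differed between genotypes in BAT (adjusted p = 0.00151, edgeR), a call lost without replicate 1, 2 or 4.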

How the results depend on the processing

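With library size alone, 46 genes were lower and 3 higher in FANKO BAT, 4 were lower in FANKO eWAT and 3 lower in WT BAT than in WT eWAT, and the medians were -0.26 in BAT and 0.24 in eWAT. At the 4 times, in order, that scaling left 39, 30, 14 and 30 genes lower in BAT and 27, 22, 8 and 8 higher in eWAT. It turned the sign of 16 genes in BAT and 8 in eWAT. In BAT the 3 called in the opposite direction were *Mrpl1* (0.24), *Mrpl52* (0.28) and *Mrps10* (0.31), and in eWAT 1, *Mrpl50* (-0.16). Among the genes named by rule it reversed the BAT change of *Mrpl23* (0.03), *Mrpl35* (0.13), *Mrpl38* (0.07), *Mrps6* (0.13), *Mrps10* (0.31), *Mrps18a* (0.06), *Mrps18b* (0.06), *Mrps22* (0.16) and *Mrps30* (0.02). Among the same genes it reversed the eWAT change of *Mrpl9* (-0.03), *Mrpl23* (-0.06), *Mrpl24* (-0.05), *Mrpl50* (-0.16) and *Mrps12* (-0.10). A stricter filter on low counts gave 3 genes lower in FANKO eWAT and -0.02 for *Mrpl50*. The cause was not tested.

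Leaving out each replicate number in turn gave 17 to 27 genes higher in FANKO BAT than in FANKO eWAT, 0 to 2 rhythmic in WT BAT, 0 to 4 in FANKO BAT, 0 to 9 in WT eWAT and 0 to 1 with a rhythm that differed in BAT. Covariates for muscle and epididymis markers left 13 genes higher in FANKO BAT than in FANKO eWAT and 0 rhythmic in WT BAT. Without the 9 libraries high in muscle markers, an alternative chosen after seeing the data, 0 were rhythmic in WT BAT, 1 in FANKO BAT and 0 had a rhythm that differed in BAT. In FANKO BAT, RLE factors, no filter on low counts and 16 group means each left 1 rhythmic gene, and library size alone 0. In WT eWAT, limma-voom and 16 group means each gave 4 and library size alone 1. DESeq2 found 1 rhythm difference in eWAT.

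At an FDR of 0.05 there were 16 genes lower in FANKO BAT than in FANKO eWAT, 5 rhythmic in WT BAT, 20 in WT eWAT, 3 in FANKO eWAT and 2 with a rhythm that differed in eWAT. With the mean of log2 CPM over genes, the difference in the large to small subunit ratio was 0.094 between genotypes in BAT and 0.063 between depots in WT mice. With a replicate block 11 genes were rhythmic in WT eWAT, and no other count moved by over 1.5 times. Same-numbered samples had correlations of -0.133 to 0.306. Between genotypes, 10 of 16 samples in BAT and 5 of 16 in eWAT correlated best with their own number. Between depots it was 10 of 16 in WT and 8 of 16 in FANKO mice. What same-numbered samples share is not given by the labels and was not tested. The main fit treated all samples as independent.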
